A study of Homo sapiens with 6 samples.

Results

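The genes described here are 10 heat shock chaperones of the cytosol and the mitochondrion, HSPA1A, HSPA1B, HSPA8, HSP90AA1, HSP90AB1, HSPB1, DNAJB1, HSPH1, HSPD1 and HSPE1. Their rows were found by gene symbol, and all 10 had one among the 20745 genes of the deposited table. RNA came from AB 8/13 cells, a conditionally immortalized human podocyte line that divides at 33 °C and differentiates at 37 °C, where it was kept for 7 to 10 days. There were 3 vehicle cultures and 3 cultures given 1 µM levamisole, an anthelminthic drug also used to spare steroids in nephrotic syndrome, for 24 h. The treatment protocol given with every sample says that levamisole was given in medium without serum, and the vehicle titles say serum free. The methods, by contrast, put the vehicle cultures in complete medium, and the levamisole titles also carry the word control. All 6 cultures are of this single line, which carries an immortalizing transgene, and each replicate was a different passage. The only level analysed here is the authors' base mean, their mean of normalized read counts over the libraries of their fit, which pools both groups. The 3744 base means under 1 are all different, which a mean of whole reads over 6 libraries would not give, so how the authors' values were averaged is not known in full. The base mean has no spread between cultures, so no difference between vehicle and levamisole was tested, no error can be set beside a level, and whether neighbours in an order of levels differ beyond their replicates cannot be told.

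Heat shock proteins are molecular chaperones, which bind unfolded or partly folded proteins and help them to fold, to assemble or to be degraded. HSP70 binds short exposed stretches of a client with the help of J-domain proteins (HSP40), HSP110 proteins exchange its nucleotide, HSP90 takes over clients such as kinases and steroid receptors, small heat shock proteins hold unfolded clients, and HSP60 with its lid HSP10 folds proteins inside mitochondria. The glucocorticoid receptor, through which levamisole has been proposed to act on podocytes, is a classic client of HSP70 and HSP90. Transcription of many of these genes rises when heat shock factor HSF1 binds heat shock elements, arrays of the unit GAA in alternating orientation.

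The stretches of DNA before the start sites are shown first, since the heat shock element is what most of these genes have in common beside their function. In RefSeq on GRCh38.p14, 16 start sites were found for the 10 genes, and the 250 bases before each were searched for a pair of units facing each other or back to back (GAA, any 2 bases, TTC, or TTC, any 2 bases, GAA). Both motifs read the same on either strand, and matches may overlap. In the sequences, written 5′ to 3′ on the strand of the gene, capitals mark these matches. The stretches of HSPA1A (chr6:31815293-31815542, plus strand) and HSPA1B (chr6:31827488-31827737, plus strand) are shown because the genes are near-identical copies, those of HSP90AA1 (chr14:102087045-102087294, minus strand) and HSPB1 (chr7:76302423-76302672, plus strand) because they are among the highest of the 10, and that of DNAJB1 (chr19:14518408-14518647, minus strand) because it holds a pair of separate elements.
HSPA1A: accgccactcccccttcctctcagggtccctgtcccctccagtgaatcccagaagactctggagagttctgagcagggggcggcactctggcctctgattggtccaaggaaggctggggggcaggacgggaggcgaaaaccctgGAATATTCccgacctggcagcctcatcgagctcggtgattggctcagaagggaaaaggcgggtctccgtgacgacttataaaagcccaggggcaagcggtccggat
HSPA1B: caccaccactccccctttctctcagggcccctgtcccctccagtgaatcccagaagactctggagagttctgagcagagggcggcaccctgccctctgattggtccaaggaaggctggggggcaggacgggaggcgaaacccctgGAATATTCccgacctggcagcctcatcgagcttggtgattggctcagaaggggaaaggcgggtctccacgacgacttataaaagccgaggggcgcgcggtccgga
HSP90AA1: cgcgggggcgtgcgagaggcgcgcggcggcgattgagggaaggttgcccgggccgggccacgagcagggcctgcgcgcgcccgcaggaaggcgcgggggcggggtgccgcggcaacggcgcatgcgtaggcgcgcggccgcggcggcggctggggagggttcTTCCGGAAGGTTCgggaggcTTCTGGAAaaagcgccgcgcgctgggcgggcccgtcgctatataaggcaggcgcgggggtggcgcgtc
HSPB1: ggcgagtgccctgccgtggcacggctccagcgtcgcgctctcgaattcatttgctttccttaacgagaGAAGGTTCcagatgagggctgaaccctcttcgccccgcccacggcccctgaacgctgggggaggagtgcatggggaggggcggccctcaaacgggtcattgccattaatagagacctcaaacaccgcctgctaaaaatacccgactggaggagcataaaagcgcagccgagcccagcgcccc
DNAJB1: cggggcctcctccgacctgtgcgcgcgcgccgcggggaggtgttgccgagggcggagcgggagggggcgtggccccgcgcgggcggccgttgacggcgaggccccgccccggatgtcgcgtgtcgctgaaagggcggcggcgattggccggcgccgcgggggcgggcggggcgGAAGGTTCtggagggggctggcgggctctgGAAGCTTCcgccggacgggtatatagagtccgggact
None of these 5 stretches overlapped an exon annotated in GENCODE 44.

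HSP90AB1 had no match before its canonical start, and its matches lay before another RefSeq start 842 bases further on, inside the transcribed region. The intronic stretch shown (chr6:44247693-44247865, plus strand) runs from 592 to 764 bases after the canonical start and overlaps no annotated exon. For HSPA8 (chr11:123062171-123062200, minus strand) and HSPD1 (chr2:197500061-197500090, minus strand), where exons of alternative transcripts lie in the window, only 30 bases are shown, round the matches nearest to the start. Each of these stretches of 30 bases itself overlaps 2 annotated exons. The other pair of overlapping matches of HSPA8, which begins at -230, is not in the stretch shown.
HSP90AB1: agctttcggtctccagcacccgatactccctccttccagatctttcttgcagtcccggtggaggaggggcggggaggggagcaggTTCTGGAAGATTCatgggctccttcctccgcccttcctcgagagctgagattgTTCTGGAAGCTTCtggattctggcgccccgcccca
HSPA8: gcgggccccTTCTGGAAGGTTCtaagatag
HSPD1: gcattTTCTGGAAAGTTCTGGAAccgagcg

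A pair of units was found before at least 1 start of 8 of the 10 genes (80%). Among all 27305 genes with a RefSeq start the share was 14.0%. By start site it was 8 of the members' 16 (50%) and 11.6% of all 35116. A run of 3 alternating units (each 2 bases from the next) was found for 4 genes, HSPA8, HSP90AA1, HSP90AB1 and HSPD1, against 0.557% of all genes. The stretches of HSPA1A and HSPA1B were identical at 235 of 249 aligned bases (94.4%), so they do not count as separate instances. HSPA8 and HSP90AB1 held 4 matches each, HSP90AA1 and HSPD1 3, DNAJB1 2, and HSPA1A, HSPA1B and HSPB1 1. The match of HSPA1A lay at -106 to -99 from the start, that of HSPA1B at -105 to -98, and the matches nearest to a start were those of DNAJB1 at -47 to -40 and of HSPA8 at -50 to -43. HSPH1, whose RefSeq start lies 484 bases from the canonical GENCODE start, and HSPE1 had no match in the windows searched. The matches of HSPD1 (within chr2:197500061-197500090) lie between the starts of HSPD1 and HSPE1. They fall just outside the window searched for HSPE1 (chr2:197500129-197500378). The motif CCAAT (or ATTGG) stood before at least 1 start of 5 of the 10 genes, against 37.0% of all genes, and before 7 of the 16 member starts, against 32.0% of all starts. TATAAA (or TTTATA) stood before 2 of the 10 genes, HSPA1A and HSPA1B, against 13.0% of all genes, and before 2 of the 16 member starts, against 10.7% of all starts. A match is a description of the letters, and binding was not measured.

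**Figure D1:**
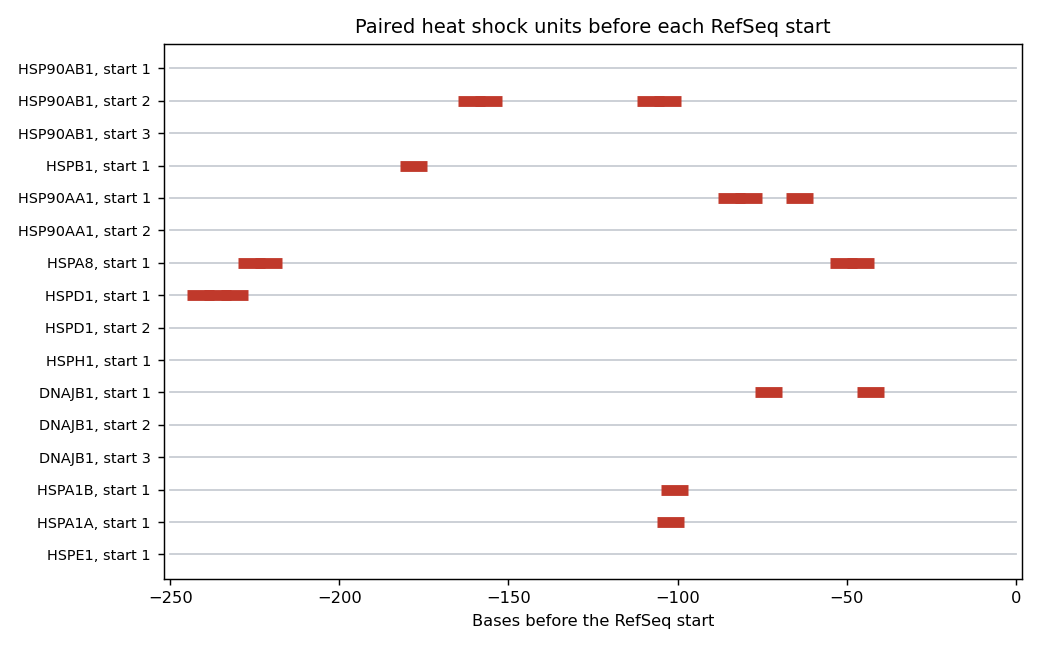
Positions of paired heat shock units (red) in the 250 bases before each of the 16 RefSeq starts, with the distance from the start in bases on the horizontal axis; start 1 is the one nearest to the start of the canonical GENCODE transcript. HSPA8, HSP90AA1, HSP90AB1 and HSPD1 hold overlapping matches, and HSPA1A and HSPA1B hold their single match at nearly the same distance. HSPH1 and HSPE1 hold none within these 250 bases, and the matches of HSPD1 lie between its start and that of HSPE1.

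All 10 chaperones were detected above the median gene. Their base means ran from 109 to 8017, with a median of 919.6, whereas the median of all 20745 genes was 21.8, and each of the 10 lay above that median. All 10 are protein-coding, and the median of the 14455 protein-coding genes was higher, at 66.2, which lay nearer to the lowest members. Together the 10 base means summed to 20027, which was 0.316% of the sum over all genes. Genes of the mitochondrial genome took 34.8% of that sum, and without them the share of the 10 was 0.484%. The 4 highest, HSP90AB1, HSPB1, HSP90AA1 and HSPA8, held 87.6% of the members' sum. Reads of the CEL-seq type fall near the 3′ end of a transcript, so a base mean is given as a number of such reads. The base mean per kilobase of exons is given beside it where the members are compared with each other. The number of reads near the 3′ end need not grow with exon length. The per-kilobase scale is therefore a check on length and not an equal measure of level. For this scale the exons of all annotated transcripts are summed, with overlapping bases counted once, and the sum can far exceed a single transcript. Orders and ratios per kilobase therefore depend on the annotation, and none was computed per canonical transcript.

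The cytosolic HSP90 genes led the set and held 53.1% of its sum. HSP90AB1 (ENSG00000096384, chromosome 6 of GRCh38, 44246166 to 44253888), which encodes the constitutive HSP90 isoform, had a base mean of 8017 and stood at place 52 of all genes. HSP90AA1 (ENSG00000080824, chromosome 14, 102080742 to 102139699), the isoform known as stress-inducible, had a base mean of 2622 and stood at place 212. HSP90AB1 was thus 3.06 times HSP90AA1 in base mean and 5.23 times per kilobase. The canonical transcripts of the genes were identical at 73.0% of their aligned bases, and 60-base windows at the 3′ end with an exact copy elsewhere made up 10.4% of HSP90AB1 and 4.31% of HSP90AA1.

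HSPB1 (ENSG00000106211, chromosome 7, 76302673 to 76304295), or HSP27, a small heat shock protein that also binds actin filaments, was the second in base mean at 4559.8, with 22.8% of the members' sum. Its exons have the shortest summed length of the 10, 1623 bases, and per kilobase it stood at 2809.5 against 2690.25 for HSP90AB1. HSP90AB1 was thus the higher in base mean, and only division by exon length turned the order of these 2 genes. On both scales they stood above the other 8.

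Among the cytosolic HSP70 genes the constitutive form was far above the inducible ones. HSPA8 (ENSG00000109971, chromosome 11, 123057489 to 123063230), which encodes the constitutive HSC70, had a base mean of 2342. HSPA1B (ENSG00000204388, chromosome 6, 31827738 to 31830254) had one of 176 and HSPA1A (ENSG00000204389, chromosome 6, 31815543 to 31817946) one of 133. These last 2 genes encode the classic heat-inducible HSP70 and lie on the same strand with 12195 bases between their starts. HSPA8 was 13.3 times HSPA1B and 17.6 times HSPA1A in base mean, and 6.91 and 8.74 times per kilobase. Against the sum of HSPA1A and HSPA1B it was 7.59 times in base mean and 3.86 times per kilobase.

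HSPA1B was 1.32 times HSPA1A in base mean and 1.26 times per kilobase, and this small gap has to be read with their likeness. Their canonical transcripts were identical at 94.7% of aligned bases, but at only 72.6% in the last 500 bases, where reads of this protocol mostly fall. Of the 441 windows of 60 bases in the last 500 exonic bases, 90 of HSPA1A (20.4%) had an exact copy elsewhere in GRCh38, and 0 of HSPA1B. The authors counted with HTSeq defaults, which leave out reads that map equally well to several places, and the part of this in the levels of these genes was not tested.

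The partners of HSP70 were lower than HSPA8. HSPH1 (ENSG00000120694, chromosome 13, 31134973 to 31162388), the HSP110 protein that exchanges the nucleotide of HSP70, had a base mean of 859, and HSPA8 was 2.73 times that in base mean and 4.72 times per kilobase. DNAJB1 (ENSG00000132002, chromosome 19, 14514769 to 14560391), a J-domain protein of the HSP40 class that stimulates the ATPase of HSP70, had a base mean of 229.9. HSPA8 was 10.2 times DNAJB1 in base mean and 17.2 times per kilobase. Per kilobase DNAJB1 was the lowest of the 10, at 28.1, while in base mean it stood above HSPA1B, HSPA1A and HSPE1.

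The genes of the mitochondrial chaperonin lie head to head on chromosome 2, with 539 bases between their canonical starts, yet their levels differed. HSPD1 (ENSG00000144381, 197486584 to 197516737, minus strand), which encodes HSP60, had a base mean of 979.6. HSPE1 (ENSG00000115541, 197500140 to 197503449, plus strand), which encodes its lid HSP10, had one of 109, the lowest of the 10. HSPD1 was 9.01 times HSPE1 in base mean and 2.15 times per kilobase. For HSPD1, 241 of 441 windows at the 3′ end (54.6%) had an exact copy elsewhere, the largest share of the 10. For HSPE1 it was 151 windows (34.2%), and the matches fell within 13 annotated genes. These include HSPD1 and HSPE1-MOB4, whose spans overlap HSPE1 itself, so 13 is not a number of separate copies. Of the last 500 exonic bases of HSPE1, 33.8% are also exons of the read-through gene HSPE1-MOB4 on the same strand. The part of these shared bases in the gap between HSPD1 and HSPE1 was not tested.

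**Figure D2:**
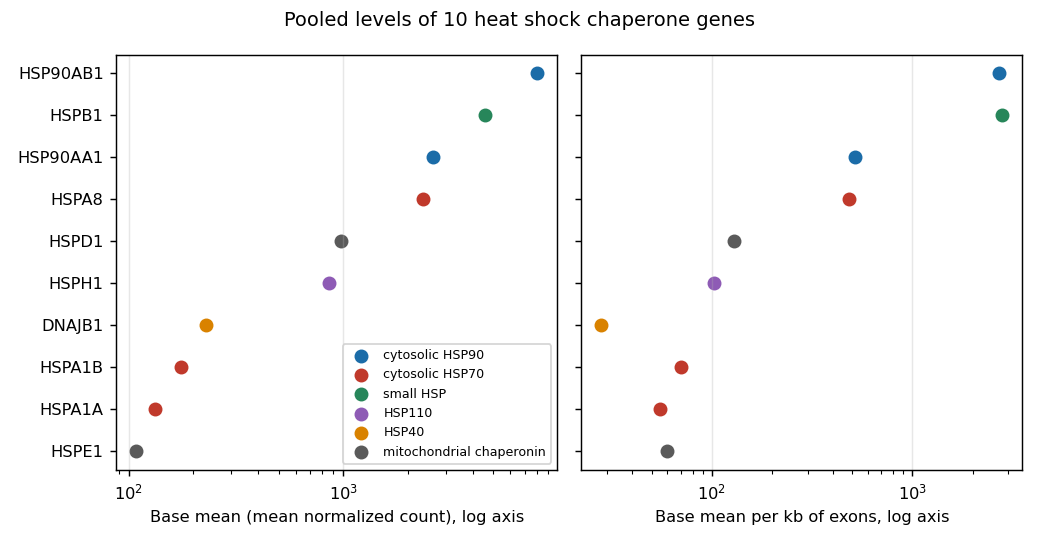
Base mean (left) and base mean per kilobase of exons (right) of the 10 chaperone genes, both on log axes, with 1 point a gene, coloured by class; the values are pooled over both groups by the authors, so there are no error bars. HSP90AB1 and HSPB1 lead on both scales. DNAJB1 goes from place 7 to place 10 per kilobase of its annotated exons, which sum to 8188 bases against 2242 in its canonical transcript.

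Of the 45 pairs that the 10 genes form, 40 had the same order on both scales. The other 5 were HSP90AB1 with HSPB1, HSPA1A with HSPE1, and DNAJB1 with HSPA1B, HSPA1A and HSPE1. HSPA1B, HSPA1A and HSPE1 lay between 55.3 and 69.9 per kilobase, and HSPD1 and HSPH1 at 128 and 102. HSP90AA1 and HSPA8 were also close to each other, at 514 and 483 per kilobase. The members' places among all genes ran from 52 to 5785 by base mean, so that 72.1% of genes lay below even the lowest of them, HSPE1.

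**Figure D3:**
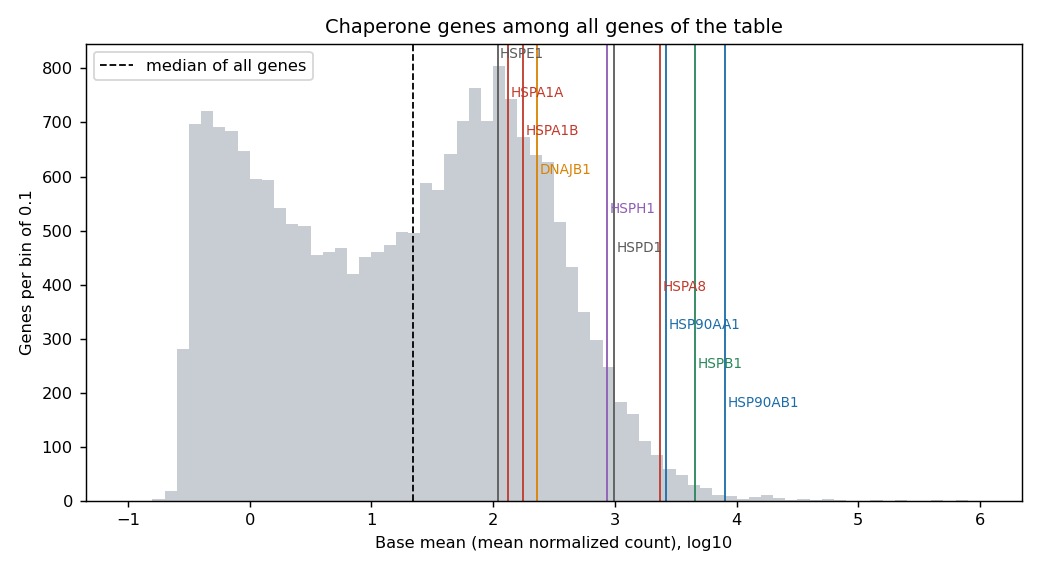
Histogram of the base means of all 20745 genes (log10 scale, bins of 0.1), with a line for each of the 10 chaperone genes and a dashed line at the median of 21.8. The genes form a high set from HSPH1 (859) upward and a lower set from HSPE1 (109) to DNAJB1 (229.9), and all lie to the right of the median.

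The other members differed widely in exact copies at the 3′ end. HSPA8 had them in 139 of 441 windows (31.5%), HSPB1 in 97, DNAJB1 in 4 and HSPH1 in 0. Processed pseudogenes of the members were listed in 17 rows, with base means of 2.40 or less, led by HSPA8P1, HSPA8P15 and HSPD1P11. Their summed base mean was 0.0999% of that of the members, and 0.781% for HSPD1, the highest share of a single member. Reads with several equally good places in the genome are not in these counts and cannot be sized from them.

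**Figure D4:**
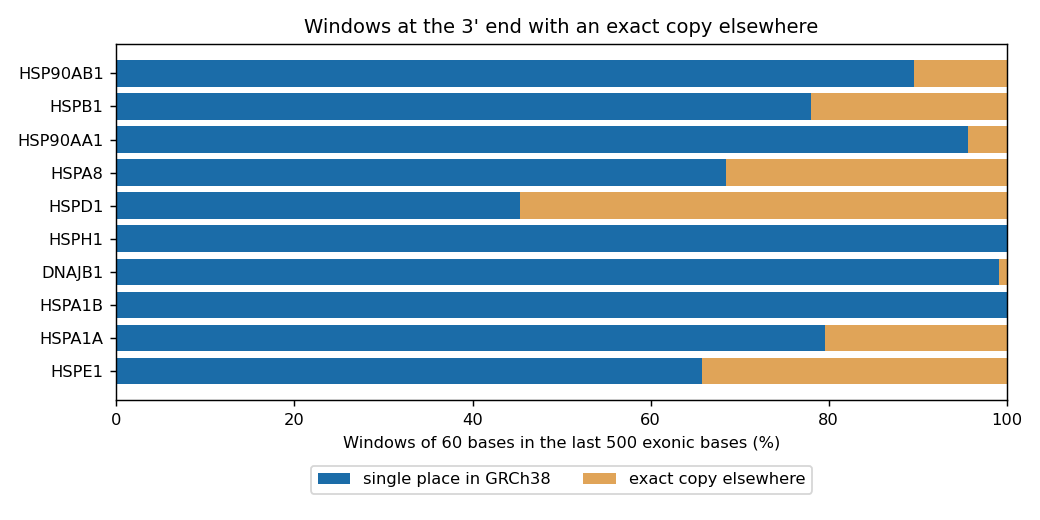
Share of the 441 windows of 60 bases in the last 500 exonic bases of each canonical transcript that occur at a single place of GRCh38 (blue) or have an exact copy elsewhere (orange), in percent. HSPD1 has copies in 54.6% of its windows and HSPE1 in 34.2%, whereas HSPA1B and HSPH1 have none.

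The other genes of the chaperone system were taken by list. Values and orders within the lists are base means, and some orders turn per kilobase, such as that of CANX (123 per kilobase) and PDIA6 (324). Genes were counted as detected at a base mean of at least 5, which 64.3% of all genes and 81.9% of protein-coding genes reached. In the list of other HSP70 and HSP110 genes, 10 of the 11 genes with a row had a base mean of at least 5, led by HSPA9 (343), the mitochondrial HSP70, HSPA5 (342), that of the endoplasmic reticulum, and HSPA4 (333). HSPA6, an HSP70 gene known for expression under strong stress only, was the lowest, at 0.343, and HSPA12B had no row. HSPA1L, which lies next to HSPA1A, had 13.5. HSPA8 and HSPH1 were above every gene of this list both in base mean and per kilobase. Outside the cytosol, the HSP90 genes HSP90B1 and TRAP1 had base means of 788 and 113, and 60.2 and 21.9 per kilobase, below both cytosolic forms on either scale.

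J-domain proteins of classes A and B were detected in 11 of 12 cases, and several exceeded DNAJB1. DNAJB4 had a base mean of 906, DNAJA1 one of 869.7 and DNAJA2 one of 612, while DNAJA4 was lowest at 2.02. These 3 leading genes also stood above DNAJB1 per kilobase. Of the small heat shock proteins beside HSPB1, CRYAB (1621) and HSPB8 (251) were the only 2 of 5 with a base mean of at least 5. HSPB6 had 4.80 and HSPB3, the lowest, 1.47, and HSPB7 and CRYAA had no row. HSPB1 was above CRYAB on both scales.

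HSP90 co-chaperones, which load clients or tune the ATPase of HSP90, were all detected (9 of 9). PTGES3, or p23, led with a base mean of 1238, followed by CDC37 (580.4) and STIP1 (541), and PPID was lowest at 27.0. Nucleotide exchange factors were also all detected (9 of 9), with BAG5 (671), BAG2 (371) and HSPBP1 (240.3) at the top and SIL1 (21.9) at the bottom. Among the heat shock factors and their binding protein, HSBP1 had a base mean of 1086, HSF2 one of 196, HSF1, the main activator of the heat shock response, one of 113, and HSF4 one of 8.96.

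Of the neighbouring chaperone systems, the cytosolic chaperonin TRiC had the median base mean nearest to that of the members. Its 8 subunits ran from 347 (CCT7) to 1661 (CCT2) in base mean, with CCT6A at 1427, CCT4 at 1183 and a median of 966. Mitochondrial chaperones and proteases other than HSPD1 and HSPE1 were all detected (10 of 10), with a median of 93.5, led by HSPA9, DNAJA3 (299) and GRPEL1 (200.1) and with HSCB (25.9) lowest. HSPD1 stood above all 10 of them on both scales, and HSPE1 above 6 of the 10 in base mean and all 10 per kilobase. The 13 ER chaperones had a median of 246, led by CANX (1689.6), PDIA6 (1326) and HSP90B1, with SDF2L1 (11.7) lowest. The lists share genes such as HSPA9, HSPA5 and HSP90B1, and no test was made between them.

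**Figure D5:**
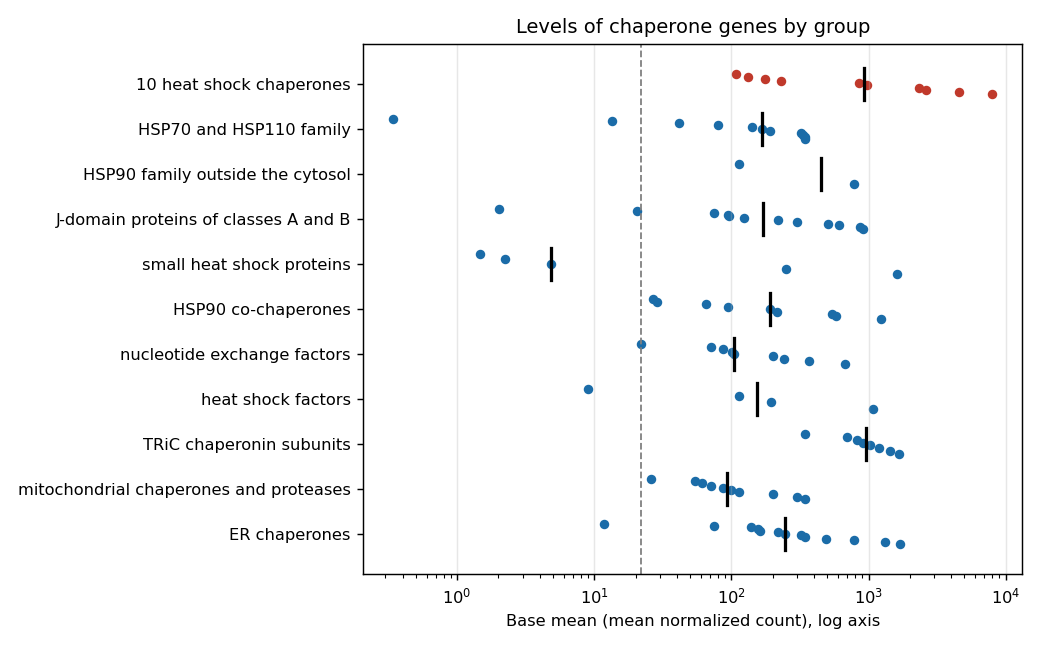
Base means (log axis) of the 10 heat shock chaperones (red) and of the genes of 10 other chaperone lists (blue), with 1 point for each gene with a row and a black bar at the median of each list; the dashed line is the median of all genes. The 10 chaperones have a median of 919.6, close to the TRiC subunits at 966, and hold the highest single values.

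The labelled cell type was checked against markers. A base mean of at least 5 was reached by 64.3% of all genes with a row and 81.9% of protein-coding ones. The counts below are out of all listed markers, also those with no row. In the podocyte list 6 of 11 markers had a base mean of at least 5, and 4 one of at least 10. ACTN4 (14321), CD2AP (929) and SYNPO (22.8) were highest and PTPRO (0.333) lowest, and the slit diaphragm gene NPHS1 and the regulator LMX1B had no row. WT1, the defining podocyte regulator, was at 6.21. In the endothelial list 0 of 4 markers reached 5, with VWF (0.434) highest and CDH5 (0.306) lowest, and PECAM1 and KDR had no row. In the leukocyte list it was also 0 of 4, with CD68 (1.06) above PTPRC (0.832), and CD3E and MS4A1 had no row. The mesangial and fibroblast list had 1 of 4 (DCN, 36.9), with PDGFRB at 4.14 and no row for ITGA8 and DES. Of the 6 markers of tubular and parietal epithelium, CLDN1 (2965), PAX8 (1198) and EPCAM (76.3) reached 5, CDH1 was at 0.546, and UMOD and LRP2 had no row. The chaperone levels are those of cultures with high ACTN4 and CD2AP, high CLDN1 and PAX8 of the tubular and parietal list, and low or unlisted levels of the more specific podocyte markers.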

How the data were processed

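Poly(A) RNA of 3 vehicle and 3 levamisole cultures was sequenced by an adapted CEL-seq protocol. Per the labels and the methods, the authors trimmed reads with Trim Galore 0.4.5, mapped them to GRCh38 with STAR 2.7.5a, counted them with HTSeq 0.11.0 under default settings and fitted DESeq2 1.22.0 in R 3.5.3. The authors deposited 1 table. Its base mean is a signal, which the authors made by averaging normalized counts over all libraries of their fit. The other 5 numeric columns hold the authors' own comparison (log2 fold change, standard error, statistic, p-value and adjusted p-value) and were not used. Values of single cultures are not among the columns, so library depth is unknown and no groups were tested. The methods state a minimum of 5 reads per sample and gene, which the table does not show, as 3744 rows have a base mean under 1.

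Members were matched by symbol. Places, shares and ratios were computed with Python 3.11.15, NumPy 2.4.6 and pandas 2.3.3, exact window copies with a search of both strands of GRCh38, identities with Biopython 1.88, and figures with matplotlib 3.10.9. Positions and union exonic lengths came from GENCODE 44, which matched 20599 of 20745 gene identifiers. Starts came from RefSeq (GRCh38.p14). The search and ranking steps were tested on simulated data. A gene was called detected at a base mean of at least 5. From each list the 3 highest genes, the lowest and those with no row were named, and HSPA1L, HSPB6 and WT1 were added after their values were seen. 1 gene of the podocyte marker list is not reported here. The members and lists were chosen with earlier results of these data known. Alternatives were the genes counted or ranked, the length scale, the base mean minimum and the number of heat shock units.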

Additional observations from a re-analysis of the deposited data

How the results depend on the processing

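No paired analysis was possible because each gene has only 1 pooled level in the file. Without levels of single cultures, edgeR, DESeq2 and left-out replicates were not run. With no spread between cultures, a value was said to have moved when it changed by more than 1.5 times. By this measure 56 of 68 alternative values had not moved, but some of these could not move. All 10 members exceed the detection minimum of 5, so leaving out genes under it cannot change their places. No base mean equals another, so the values for the number of libraries were bound to stay at 0. Podocyte markers detected fell from 6 to 4 with the minimum raised to 10, which was still counted as not moved. The members' share of all base means became 0.484% without genes of the mitochondrial genome. Per kilobase of exons the place among all genes became 50 for HSPB1, 1379 for HSPD1, 1712 for HSPH1, 2387 for HSPA1B, 2918 for HSPA1A and 2730 for HSPE1. At a base mean of at least 1, detection became 5 for small heat shock proteins, 2 for mesangial and fibroblast markers and 1 for leukocyte markers. With 3 units in a row, the share with a heat shock element became 40% of the members, against 0.557% of all genes. By start site it became 25% of the members' starts, against 0.441% of all starts. The number of libraries averaged could not be read from the values, since 0 values under 1 were shared by several rows at any of the settings tried.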
